A study of Mus musculus with 6 samples.

Results

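The genes described here are the cyclins and the cyclin-dependent kinases (CDKs), chosen by name alone. Mouse gene symbols of the form Ccn plus a letter, with or without a number, or Cdk plus a number gave 42 genes, and *Ccng1* was then left out. The remaining 41 genes, 22 cyclins and 19 CDKs, are part of the 15266 genes measured by mRNA-seq. They were sorted by the phase or process that each is best known for. The libraries came from embryoid bodies (EBs), which are suspension aggregates of differentiating mouse embryonic stem cells (mESCs), collected on day 4 (D4) of differentiation in serum without LIF. Both lines derive from W9.5 mESCs, and both carry edits of the *Evx1* locus. EVX1-Δfs, clone 14, holds frameshifts in the homeodomain exon of *Evx1*. Del#3 lacks 2.6 kb with the promoters of *Evx1* and of its divergent antisense transcript *Evx1as*. Each line had 3 replicates, from 3 differentiations of both lines side by side that began on different days. Same-numbered replicates were taken to come from the same differentiation, which the titles do not state. EVX1-Δfs is 1 clone, and the labels name no clone for Del#3. A difference between lines thus cannot be told apart from a difference between clones, and unedited cells were not analysed here.

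Cyclins are the regulatory subunits that switch on CDKs, and their levels rise and fall as they are made and destroyed. D-type cyclins with *Cdk4* and *Cdk6* act in G1, E-type cyclins with *Cdk2* act at the entry into S phase, cyclin A acts in S and G2, and B-type cyclins with *Cdk1* drive mitosis. Another branch of the family works on RNA polymerase II, through the transcription factor TFIIH, the Mediator complex, the elongation factor P-TEFb and the cyclin K kinases. Pluripotent stem cells divide fast and have a short G1 phase. Much of the control of these proteins lies in synthesis and degradation rate, phosphorylation and partner binding, which mRNA does not show.

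The values are normalized counts, that is read counts divided by a size factor for each library. Each library held between 9024579 and 15699124 reads on the listed genes. The deepest library of each line was replicate 1. The locus matched the labels. *Evx1* had 4023, 3132 and 2582 reads in the EVX1-Δfs libraries and 48, 28 and 31 in the Del#3 libraries. Transcripts of the epiblast (*Pou5f1*, *Nanog*, *Sox2*, *Utf1*) and of the primitive streak (*T*, *Mixl1*, *Eomes*, *Mesp1*) were present in every library. Their summed normalized counts ranged from 6421 to 11206 and from 4306 to 7344. Because EBs are mixtures, fewer cells with a transcript and less of that transcript per cell cannot be told apart. Summed visceral endoderm transcripts (*Ttr*, *Afp*, *Apoa1*, *Apob*) were 231 in Del#3 replicate 1 and between 49.1 and 96.4 in the other libraries. Their part in the results was not tested.

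The family was well measured in D4 EBs. The mean of the 41 genes over all libraries had a median of 455 normalized counts, against 175 for all listed genes, and 32 of the 41 were above that listed median. Means exceeded 1000 normalized counts for 14 of the genes and lay under 100 for 6. Levels can be set against each other only per length, and the following are normalized counts per kb of annotated exon. *Cdk4*, the G1 kinase, stood first at a mean of 1951, and its lowest library (1596) was above the highest library of the next gene. The mitotic cyclin gene *Ccnb2* followed at 1098, then *Ccna2*, the S and G2 cyclin, at 754, *Ccnd1* at 703, *Cdk1* at 647 and *Ccnd3* at 572. *Cdk11b*, a kinase of transcription and splicing, followed at 522. From the top to the bottom of this order, 37 of the 40 neighbouring pairs had overlapping ranges. The exceptions were *Cdk4* over *Ccnb2*, *Cdk2* (222) over *Cdk8* (165), and *Cdk19* (10.8) over *Ccna1* (3.09). The order depends in part on the length used. Per kb of the longest coding transcript, an alternative chosen after seeing the data, *Cdk4* was still first at 3087 and *Cdk19* still above *Ccna1*, but *Cdk2* (222) and *Cdk8* (216) overlapped. *Cdk9*, the P-TEFb kinase, was at 857 on that scale and at 322 per kb of all exons. The lowest genes were *Ccna1*, a cyclin of the germ line, and *Cdk15* at 1.05 normalized counts per kb. *Ccna1* had 3.96, 7.03 and 4.73 normalized counts in EVX1-Δfs and 3.19, 6.97 and 3.20 in Del#3. *Cdk15* lay between 0 and 9.38, and replicate 3 of both lines had no read of it. Both genes were too low to be tested, which left 39.

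**Figure D1:**
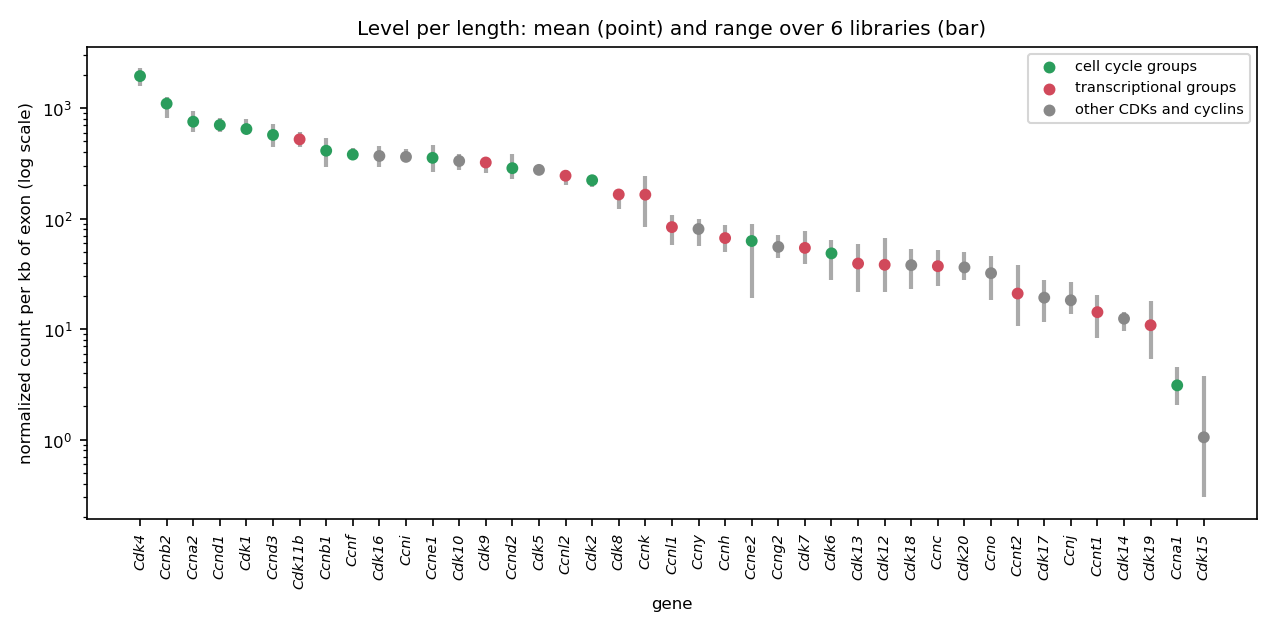
Level of each of the 41 genes in normalized counts per kb of exon on a log axis, as the mean (point) and range (bar) over 6 libraries, coloured by cell cycle, transcriptional and other groups. *Cdk4* stands alone at the top and the bar of *Cdk15*, which reached 0, is cut by the log axis.

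In the comparison of Del#3 with EVX1-Δfs, which asked what loss of *Evx1as* adds to loss of EVX1, no cyclin or CDK gene passed the test. limma called 0 of the 39 genes at an adjusted p under 0.05, edgeR's quasi-likelihood test 0 and DESeq2's Wald test 0. Of all 12891 genes tested, limma and edgeR each called 0.0155%, and DESeq2 called 0.0233%. At an unadjusted p under 0.05, limma called 0 of the 39 genes and 1.03% of all genes. When the replicate number entered the limma model as a block, it again called 0 of the 39 genes, against 0.0233% of all genes, and at an unadjusted p under 0.05 it called 0 of the 39, against 4.62% of all genes. In no gene of the 39 did the 3 libraries of one line lie wholly above or below those of the other, whereas 3.51% of all genes tested had such a split. Fold changes are given as Del#3 over EVX1-Δfs on the log2(normalized count + 1) scale. They were positive for 20 of the 39 genes, with a median of 0.02 against 0.00 for all genes tested. The range ran from -0.27 (*Cdk14*) to 0.73 (*Ccne2*). The 95% interval lay inside a 2-fold change in either direction for 32 of the 39 genes (82.1%), against 61.1% of all genes tested. The genes outside were *Ccne2*, *Cdk19*, *Ccnt1*, *Ccnt2*, *Cdk12*, *Ccnk* and *Ccno*. With the replicate block, the interval lay inside 2-fold for 38 of the 39 genes (97.4%), the exception being *Ccne2*, against 76.2% of all genes. The direction was the same within all 3 same-numbered pairs for *Ccnt1* and *Ccno* (higher in Del#3, as in 12.1% of all genes tested) and for *Ccnb1* and *Ccnh* (lower in Del#3, as in 11% of all genes tested). Summed over all 41 genes, the normalized counts were 37404 ± 569 for EVX1-Δfs and 36757 ± 2168 for Del#3 (SD over 3 libraries each). A two-sided exact permutation test of the summed values gave p = 1. With 3 libraries against 3 it cannot go below 0.1, so it could not have passed 0.05 and decides nothing.

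**Figure D2:**
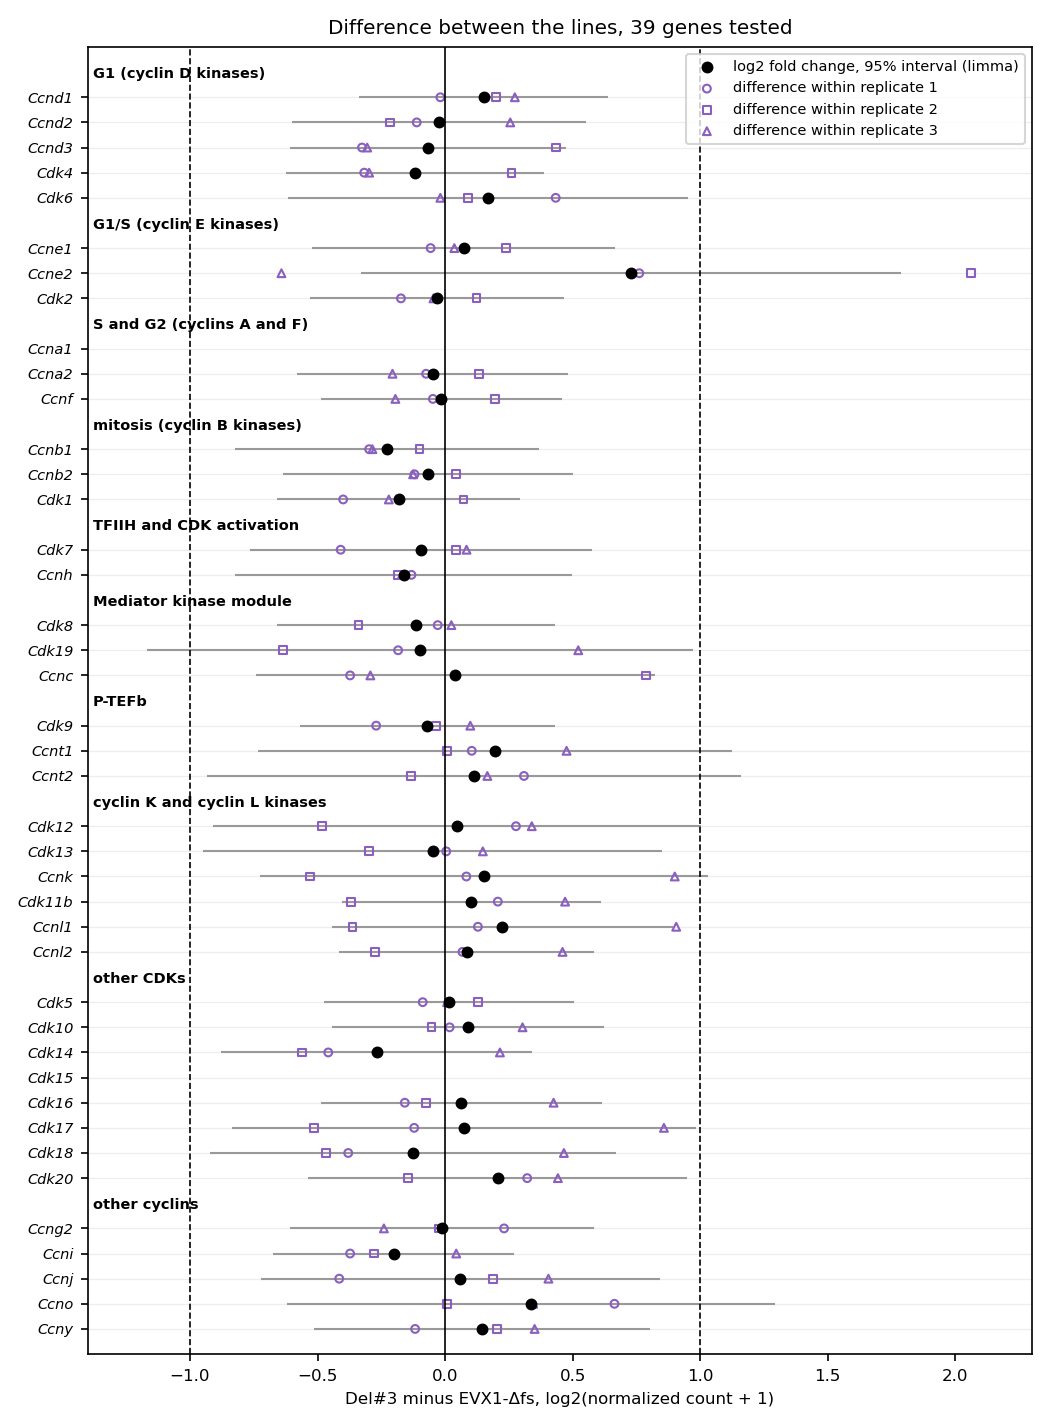
Difference between the lines for the 39 genes tested, as Del#3 minus EVX1-Δfs in log2(normalized count + 1), with the limma estimate and 95% interval and the difference within each same-numbered pair. Every interval spans 0, and the dashed lines mark a 2-fold change in either direction. The intervals of *Ccne2*, *Ccnt1*, *Ccnt2*, *Cdk12*, *Ccnk* and *Ccno* cross the right line, and that of *Cdk19* crosses the left.

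The G1 genes were at like levels in both lines. *Ccnd1*, a D-type cyclin, had 2379, 2727 and 2531 normalized counts in replicates 1, 2 and 3 of EVX1-Δfs and 2348, 3128 and 3059 in Del#3. Its log2 fold change was 0.15 (95% interval -0.34 to 0.64), and replicate 1 was the lowest library in both lines. For *Ccnd2*, EVX1-Δfs had 1397, 1641 and 1843 normalized counts and Del#3 had 1293, 1413 and 2200.1. The lines overlapped, with a log2 fold change of -0.02 (-0.60 to 0.55). The *Ccnd3* libraries were at 1269.8, 1194 and 1464 in EVX1-Δfs and at 1013, 1613 and 1184 in Del#3, so Del#3 held both the lowest and the highest value. Per length, *Ccnd1* made up 43.5% ± 3.05 of the D-type cyclin signal in EVX1-Δfs and 46.7% ± 0.835 in Del#3 (SD, n = 3). *Ccnd3* made up 37.9% ± 2.86 and 35.3% ± 4.75, and *Ccnd2* made up the rest. *Cdk4*, their main kinase partner here, had 6459, 6204 and 7029 normalized counts in EVX1-Δfs and 5184, 7429 and 5718 in Del#3, with a log2 fold change of -0.12 (-0.62 to 0.39). *Cdk6*, the other partner, had 104, 223 and 193 normalized counts in EVX1-Δfs and 140.3, 237 and 190.1 in Del#3. Replicate 1 was the lowest library of each line for *Cdk6*. Per length, *Cdk4* made up 97.8% ± 0.829 of the summed *Cdk4* and *Cdk6* signal in EVX1-Δfs and 97.4% ± 0.269 in Del#3 (SD, n = 3).

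At the G1/S step, *Ccne1* and *Cdk2* had estimates near 0, and *Ccne2* had the widest range of the 39 genes, 4.66-fold from its lowest to its highest library. *Ccne1*, an E-type cyclin, had 738, 1037 and 968 normalized counts in EVX1-Δfs and 709, 1223 and 992 in Del#3, with a log2 fold change of 0.07 (-0.52 to 0.67). *Cdk2*, the kinase it activates, had 534, 544 and 560.0 normalized counts in EVX1-Δfs and 473, 592 and 543 in Del#3. The *Cdk2* log2 fold change was -0.03 (-0.53 to 0.47). *Ccne2*, another E-type cyclin (chr4:11118498-11131926, plus strand, mm9), had 183, 66.8 and 287 normalized counts in EVX1-Δfs and 312, 282 and 184 in Del#3. EVX1-Δfs replicate 2 stood below the other 5 libraries, and in pair 3 the order of the lines was turned. Its log2 fold change was 0.73 (-0.33 to 1.79), with an adjusted p of 1.00 by limma. Without EVX1-Δfs replicate 2 the *Ccne2* log2 fold change was 0.14, and without EVX1-Δfs replicate 3 it was 1.18. Its exons share 609 bp of exon with *Ints8* on the opposite strand. Such sharing was not particular to *Ccne2*, being 818 bp for *Ccnd1*, 695 bp for *Ccnt1*, 604 bp for *Cdk4* and 512 bp for *Ccna2*. Per length, *Ccne1* made up 87.0% ± 7.33 of the E-type cyclin signal in EVX1-Δfs and 82.5% ± 6.72 in Del#3 (SD, n = 3).

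In S and G2, *Ccna2*, the somatic cyclin A, had 2268, 2497 and 3332 normalized counts in EVX1-Δfs and 2153, 2739 and 2888 in Del#3. Replicate 1 was lowest in each line, and the log2 fold change between lines was -0.05 (-0.58 to 0.48). *Ccnf*, the F-box protein of a ubiquitin ligase and a cyclin that binds no CDK, varied little, from 1320.0 to 1655 normalized counts over all 6 libraries. Its log2 fold change was -0.02 (-0.49 to 0.46).

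The mitotic genes had estimates a little below 0 in Del#3, and none passed the test. Over 18 alternative fits the estimates ran from -0.46 to -0.06 for *Ccnb1*, -0.28 to -0.07 for *Cdk1* and -0.23 to 0.12 for *Ccnb2*. *Ccnb1*, a B-type cyclin, had 2269, 1338 and 2040.5 normalized counts in EVX1-Δfs and 1846, 1248 and 1675 in Del#3. It was lower in Del#3 within each of the 3 pairs, yet the lines overlapped and its log2 fold change was -0.23 (-0.83 to 0.37), or -0.59 to 0.14 with the replicate block. *Ccnb2*, another B-type cyclin, had 1358, 1889 and 1933 normalized counts in EVX1-Δfs and 1249.7, 1947 and 1772 in Del#3, with a log2 fold change of -0.07 (-0.64 to 0.50). *Cdk1*, the mitotic kinase, had 2721, 2051 and 2356 normalized counts in EVX1-Δfs and 2063, 2156 and 2022 in Del#3. The highest *Cdk1* value was in EVX1-Δfs replicate 1, and the log2 fold change was -0.18 (-0.66 to 0.29). The 3 mitotic genes summed to 5985 ± 612 normalized counts in EVX1-Δfs and 5326 ± 157 in Del#3 (SD, n = 3). A two-sided exact permutation test without the pairing gave p = 0.3. It cannot go below 0.1 with 3 libraries against 3, so it could not have passed 0.05 and decides nothing. Per length, *Ccnb2* made up 71.2% ± 8.71 of the B-type signal in EVX1-Δfs and 73.4% ± 8.08 in Del#3. With the longest coding transcript as the length, the *Ccnb2* share was 59.7% ± 10.2 and 62.3% ± 9.70 (SD over 3 libraries each), and in EVX1-Δfs replicate 1 it was 49.2%.

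Promoters of mitotic genes are known for CCAAT boxes, bound by NF-Y, and for the cell cycle homology element, TTTGAA or TTTAAA, through which the genes are held down outside G2 and mitosis. The 150 bases before the start site of the 3 mitotic genes are shown to locate these motifs. They come from RefSeq on GRCm38.p6, which is not the mm9 build of the read counts. In this window *Ccnb2* held the CCAAT box alone, and bases from the start site onward were not searched. Each sequence is printed along the gene's own strand. Capitals mark the CCAAT box and both forms of the element, each searched on either strand. On the other strand a CCAAT box reads as ATTGG, and the TTTGAA form reads as TTCAAA. In these sequences no match overlapped another. The positions are chr13:100786487-100786636 for *Ccnb1*, chr9:70421555-70421704 for *Ccnb2* and chr10:69352913-69353062 for *Cdk1*, all on the minus strand.
Ccnb1: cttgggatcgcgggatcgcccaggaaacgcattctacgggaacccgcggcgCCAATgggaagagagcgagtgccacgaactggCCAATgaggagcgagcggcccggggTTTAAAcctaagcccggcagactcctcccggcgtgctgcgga
Ccnb2: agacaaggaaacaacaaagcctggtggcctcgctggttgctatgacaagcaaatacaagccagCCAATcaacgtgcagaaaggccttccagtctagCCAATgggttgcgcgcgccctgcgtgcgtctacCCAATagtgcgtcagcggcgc
Cdk1: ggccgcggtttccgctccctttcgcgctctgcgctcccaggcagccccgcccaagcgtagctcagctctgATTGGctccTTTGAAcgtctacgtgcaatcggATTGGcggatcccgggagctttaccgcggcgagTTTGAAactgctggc
*Ccnb1* held 2 CCAAT boxes and 1 TTTAAA, *Ccnb2* held 3 CCAAT boxes, and *Cdk1* held 2 CCAAT boxes and 2 TTTGAA. Of 32851 promoters of the same length in the reference, 24.5% held CCAAT, 9.07% TTTGAA and 6.75% TTTAAA, and 3.60% held CCAAT together with TTTGAA or TTTAAA. Among the genes of the family, 32 matched a reference promoter, 34 promoters in all, of which 14 held CCAAT, 4 held TTTGAA, 2 held TTTAAA and 4 held CCAAT together with one of the others. Those 4 belonged to *Ccnb1*, *Ccnf*, *Cdk1* and *Cdk16*.

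The transcriptional CDKs and cyclins were also not called between the lines. *Cdk7*, the kinase of TFIIH, which also activates other CDKs, had 643, 326 and 458 normalized counts in EVX1-Δfs and 484, 336 and 486 in Del#3, with replicate 2 lowest in each line. *Ccnh*, its cyclin, had 273, 176 and 207 normalized counts in EVX1-Δfs and 249, 154 and 184 in Del#3. It was lower in Del#3 in each pair, with a log2 fold change of -0.16 (-0.82 to 0.50). In the Mediator kinase module, *Cdk8* had 718, 601 and 669.9 normalized counts in EVX1-Δfs and 704, 475 and 681 in Del#3. Its paralog *Cdk19* was low, with 104, 49.2 and 41.4 normalized counts in EVX1-Δfs and 91.7, 31.4 and 59.8 in Del#3, replicate 1 being highest in both lines. Per length, *Cdk8* made up 94.0% ± 2.54 of the summed *Cdk8* and *Cdk19* signal in EVX1-Δfs and 94.1% ± 1.92 in Del#3 (SD, n = 3). *Ccnc*, the cyclin of that module, ranged from 127 to 266 normalized counts.

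P-TEFb releases paused RNA polymerase II. Its kinase gene *Cdk9* had 1440.1, 1674 and 1433 normalized counts in EVX1-Δfs and 1194, 1633 and 1535 in Del#3, with a log2 fold change of -0.07 (-0.57 to 0.43). *Ccnt1*, a cyclin partner of *Cdk9*, had 175, 76.2 and 111 normalized counts in EVX1-Δfs and 188, 76.6 and 155 in Del#3. It was higher in Del#3 within each pair, by 0.01 log2 units in pair 2, and its log2 fold change was 0.20 (-0.73 to 1.13). The kinases of the cyclin K and cyclin L group act on elongation, on DNA damage response genes and on splicing. Here *Cdk11b* had the most reads, at 1829, 2163 and 1661 normalized counts in EVX1-Δfs and 2111, 1674 and 2302 in Del#3. *Ccnl1*, a cyclin of the splicing speckles, had the smallest p of that group, at 565, 472 and 345 normalized counts in EVX1-Δfs and 618, 367 and 647 in Del#3. The order of the lines in *Ccnl1* was turned in pair 2, and its log2 fold change was 0.22 (-0.44 to 0.89). *Ccnl2*, its paralog, ranged from 1063 to 1463 normalized counts.

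Among the remaining genes, *Cdk16*, a kinase activated by cyclin Y, had the most reads of the other CDKs, at 1510.0, 1972 and 1272 normalized counts in EVX1-Δfs and 1353, 1872 and 1709 in Del#3. *Cdk14*, which works with cyclin Y on Wnt receptor signalling, had 217, 218 and 187 normalized counts in EVX1-Δfs and 158, 147 and 217 in Del#3. In *Cdk14*, 2 of the 3 Del#3 libraries were below all EVX1-Δfs libraries, and its log2 fold change was -0.27 (-0.88 to 0.34). *Cdk5*, best known for its role in neurons, was among the steadiest, from 517 to 621 normalized counts. *Cdk10*, *Cdk17*, *Cdk18* and *Cdk20* had estimates from -0.13 to 0.21 on the log2 scale. *Ccni*, a cyclin relative, led the other cyclins, with 1397, 1309 and 1138 normalized counts in EVX1-Δfs and 1079, 1079.9 and 1173 in Del#3. Its log2 fold change was -0.20 (-0.68 to 0.27). *Ccno*, a cyclin of multiciliated cells, was low at 34.3 to 85.9 normalized counts and had a log2 fold change of 0.34 (-0.62 to 1.29). *Ccng2*, *Ccnj* and *Ccny* had estimates of -0.01, 0.06 and 0.14.

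**Figure D3:**
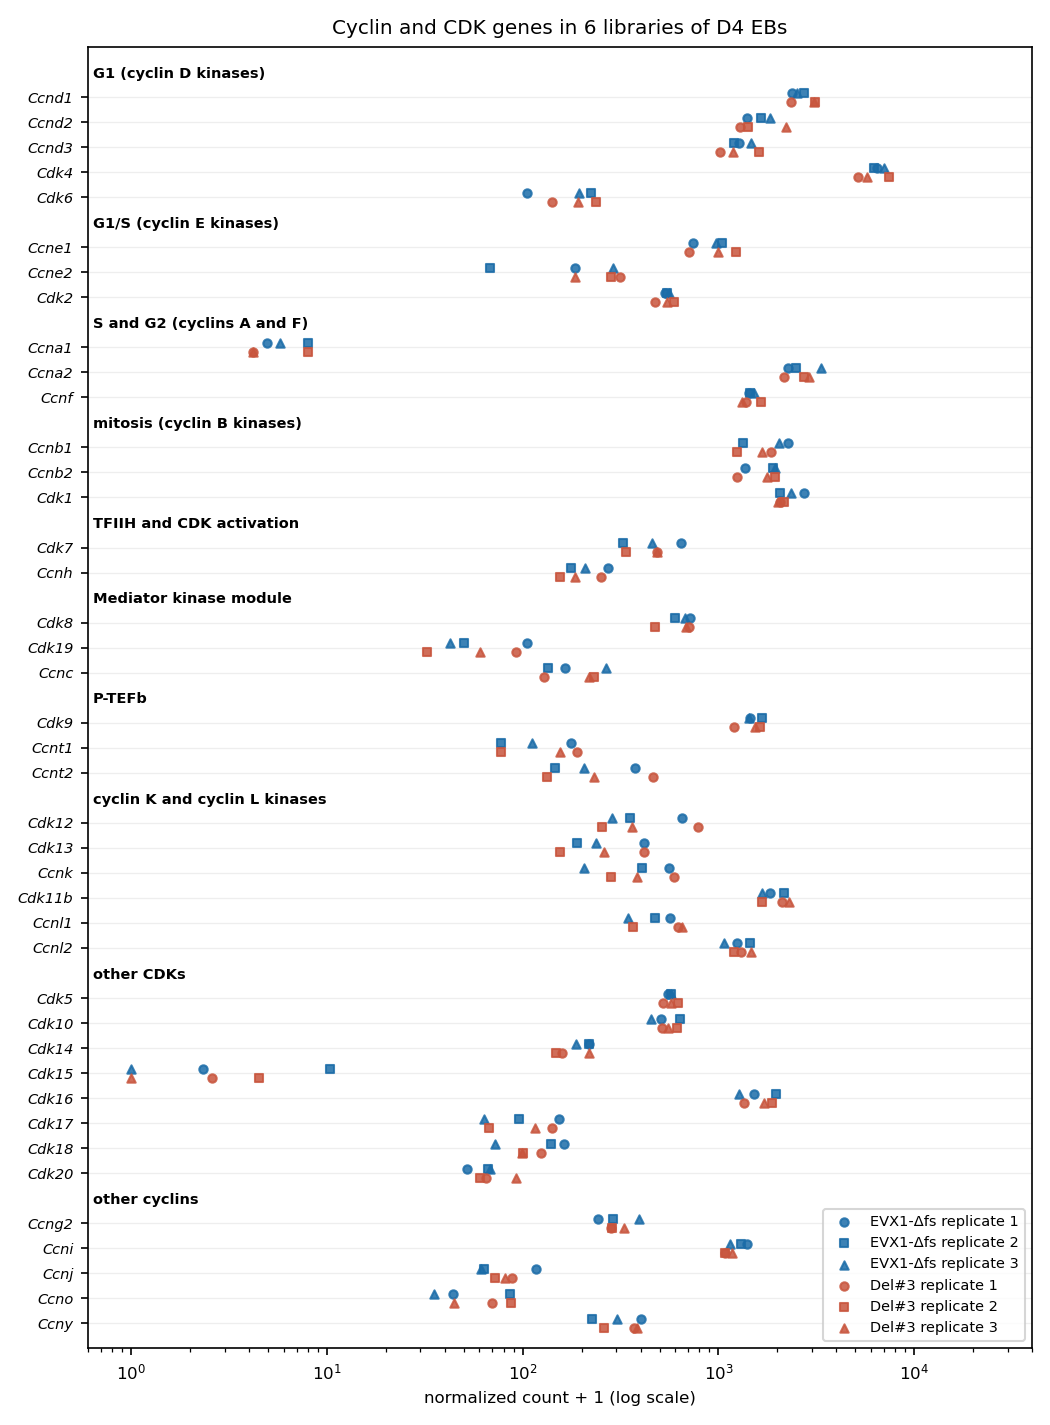
Normalized count plus 1 of the 41 genes, on a log axis, in each of the 6 libraries of D4 EBs, by group. The colours of the lines overlap in every gene tested, and the replicate 1 circles lie to the right in genes such as *Ccnt2* and *Cdk12* and to the left in *Cdk6*.

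The genes that regulate these kinases, a list of 56 tested, were also not called between the lines. None passed the limma test in either direction, 0 had an unadjusted p under 0.05, and the median log2 fold change was 0.10. The 95% interval lay inside 2-fold for 64.3% of them, and 13 were higher in Del#3 in all 3 same-numbered pairs (23.2%, against 12.1% of all genes tested), while 8 were lower in all 3, against 11% of all genes tested. With the replicate block, 2 had an unadjusted p under 0.05, *Cdc27* and *Aff4*, against 4.62% of all genes. Among the CDK inhibitors, *Cdkn1c*, known as a brake on proliferation in differentiating cells, had 625, 722 and 1050.4 normalized counts in EVX1-Δfs and 732, 1446 and 1169 in Del#3, with a log2 fold change of 0.46. *Cdkn3*, a CDK phosphatase, had the smallest p of its group, with a log2 fold change of -0.63 and overlapping lines. In the group of proteins that destroy cyclins, *Cdc27*, a subunit of the anaphase promoting complex, had 234, 32.8 and 76.8 normalized counts in EVX1-Δfs and 395, 108 and 145 in Del#3. Its log2 fold change was 1.12, higher in Del#3 in 3 of 3 pairs, with an adjusted p of 1.00 by limma, or 0.69 with the replicate block. *Aff4*, a scaffold of the super elongation complex that carries P-TEFb, had 1411, 212 and 395 normalized counts in EVX1-Δfs and 1780, 404 and 659 in Del#3. The lines overlapped, and EVX1-Δfs replicate 2 was the lowest library. Its log2 fold change was 0.67, also higher in Del#3 in 3 of 3 pairs, with adjusted p of 1.00 by limma and 0.79 with the replicate block. *Ccnyl1*, a cyclin Y relative, was the 1 gene of the 56 (1.79%, against 3.51% of all genes tested) whose lines did not overlap, with 209, 148 and 139 normalized counts in EVX1-Δfs and 135, 111 and 110.0 in Del#3.

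More genes of the family were called between replicate numbers, taken as days, than between the lines. An F test of the replicate number in limma, with the line in the model, called 3 of the 39 genes (7.69%) and 4.24% of all genes tested. All 3 are transcriptional. *Ccnt2*, a cyclin T gene (chr1:129670741-129704638, plus strand, mm9), had 375, 145 and 206 normalized counts in EVX1-Δfs and 465, 132 and 231 in Del#3, with an adjusted p of 0.030. *Cdk13* (chr13:17807796-17896931, minus strand), a cyclin K kinase, had 413, 189 and 235 normalized counts in EVX1-Δfs and 414, 153 and 261 in Del#3, with an adjusted p of 0.048. *Cdk12* (chr11:98064373-98139818, plus strand), its paralog, had 647, 354 and 286 normalized counts in EVX1-Δfs and 785, 253 and 362 in Del#3, with an adjusted p of 0.0496. In all of them the replicate 1 library of each line was above the other 4 libraries. edgeR's quasi-likelihood test called *Ccnt2* alone, against 3.58% of all genes tested, and DESeq2's likelihood ratio test called the same 3 genes, against 11.2%. Whether the family lay above or below the background thus differed between tools. With TMM scaling or total-read scaling, limma called *Ccnt2* alone, against 2.59% and 2.46% of all genes tested. *Ccnk*, the cyclin of *Cdk12* and *Cdk13*, had 559.7, 408 and 206 normalized counts in EVX1-Δfs and 593, 282 and 384 in Del#3, and did not pass, with an adjusted p of 0.14 by the limma F test.

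The 150 bases before the start of the 3 genes called by replicate number are shown for comparison with the mitotic promoters above, from the same source and with the same letters in capitals. The positions are chr1:127774014-127774163 (plus strand) for *Ccnt2*, chr11:98203155-98203304 (plus strand) for *Cdk12* and chr13:17805098-17805247 (minus strand) for *Cdk13*.
Ccnt2: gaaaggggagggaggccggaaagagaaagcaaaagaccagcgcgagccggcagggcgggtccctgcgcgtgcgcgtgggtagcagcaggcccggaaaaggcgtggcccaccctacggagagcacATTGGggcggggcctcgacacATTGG
Cdk12: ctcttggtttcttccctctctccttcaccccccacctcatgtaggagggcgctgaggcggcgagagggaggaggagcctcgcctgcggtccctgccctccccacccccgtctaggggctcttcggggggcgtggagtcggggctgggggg
Cdk13: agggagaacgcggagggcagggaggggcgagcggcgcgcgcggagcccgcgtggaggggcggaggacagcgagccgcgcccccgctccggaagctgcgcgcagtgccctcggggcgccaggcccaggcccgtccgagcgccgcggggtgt
*Ccnt2* held 2 CCAAT boxes, read as ATTGG, and *Cdk12* and *Cdk13* held none of the searched letters in this window.

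Across the family, both replicate 1 libraries were above the other 4 libraries in 10 of the 39 genes (25.6%) and below them in 9 (23.1%). Over all genes tested these shares were 22.2% and 22.7%, so the family was near the background. By branch of the family the counts differed, which is a description with no test. In the 13 cell cycle genes tested, replicate 1 was above in 0 and below in 7, and the median difference between replicate 1 and the mean of replicates 2 and 3 was -0.25 log2 units. Those below were *Ccnd1*, *Ccnd2*, *Cdk6*, *Ccne1*, *Cdk2*, *Ccna2* and *Ccnb2*. In the 14 transcriptional genes tested, replicate 1 was above in 8 and below in 0, with a median difference of 0.52. Those above were *Ccnh*, *Cdk8*, *Cdk19*, *Ccnt1*, *Ccnt2*, *Cdk12*, *Cdk13* and *Ccnk*. *Cdk17*, a kinase of the PCTAIRE family, was also above, with 152, 94.9 and 62.6 normalized counts in EVX1-Δfs and 139, 66.2 and 114 in Del#3, as was *Ccnj*. Of the 56 regulators, 3 (5.36%, against 4.24% of all genes tested) passed the same F test, namely *Cdc27*, *Aff4* and *E2f7*, a repressor among the E2F factors.

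Some cell type markers, transcript length, GC content and depth moved with this difference, the replicate 1 libraries being the deepest of each line. The summed primitive streak markers were 5689 normalized counts in EVX1-Δfs replicate 1 and 4306 in Del#3 replicate 1, below the 5869 to 7344 of the other 4 libraries. Of these markers, *Eomes* and *Mesp1* were below in both replicate 1 libraries. *T* overlapped, and *Mixl1* was highest in EVX1-Δfs replicate 1 (601) and lowest in Del#3 replicate 1 (422). Summed definitive endoderm markers (*Sox17*, *Foxa2*, *Cer1*, *Gsc*) were 3243 and 2627, below the 3455 to 4295 of the others. Of these, *Sox17* overlapped (772 and 518 against 637 to 800), and *Foxa2*, *Cer1* and *Gsc* were below. For the sums of the epiblast, visceral endoderm, blood and endothelium, neurectoderm and fibroblast lists, replicate 1 overlapped the other libraries. Single genes of these lists did separate. *Nanog* was below, at 602 and 651 in replicate 1 against 830 to 1395 in the others, and *Ttr*, *Gata1* and *Hbb-bh1* were above. The members above had a median transcript length of 4813 bp, those below 2810 bp and the rest 2845 bp. For all genes tested the corresponding medians were 3932, 2253 and 3107 bp. Across genes, which are not independent replicates and share the same libraries, Spearman's rho between length and the replicate 1 difference was 0.46 over the 39 genes and 0.39 over 11994 genes. For GC content rho was -0.34 and -0.37. When the trend with length and then GC content was subtracted from each library, 0 of the 39 genes were called by the limma F test, against 0.133% of all genes. At an unadjusted p under 0.05 it called 7 of the 39, against 22.1% of all genes. The median difference was then -0.13 log2 units for the cell cycle genes, of which 6 of 13 were positive (3 before the correction). It was 0.28 for the transcriptional genes, of which 12 of 14 were positive (11 before), and 0.08 over all genes. The correction took *Ccnt2* from 1.26 to 0.56 log2 units, *Cdk13* from 1.01 to 0.67 and *Cdk12* from 1.20 to 0.94. It took *Ccnk* from 0.90 to 1.14 and *Ccnc* from -0.51 to -1.13. Within replicates 2 and 3, limma called 0 of the 39 genes between the numbers, edgeR 0 and DESeq2 0. At an unadjusted p under 0.05 these tools called 1, 1 and 0 of them, against 4.57%, 3.22% and 0.677% of all genes. The part of the markers in the replicate 1 difference was not tested, and cells and libraries cannot be told apart here.

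**Figure D4:**
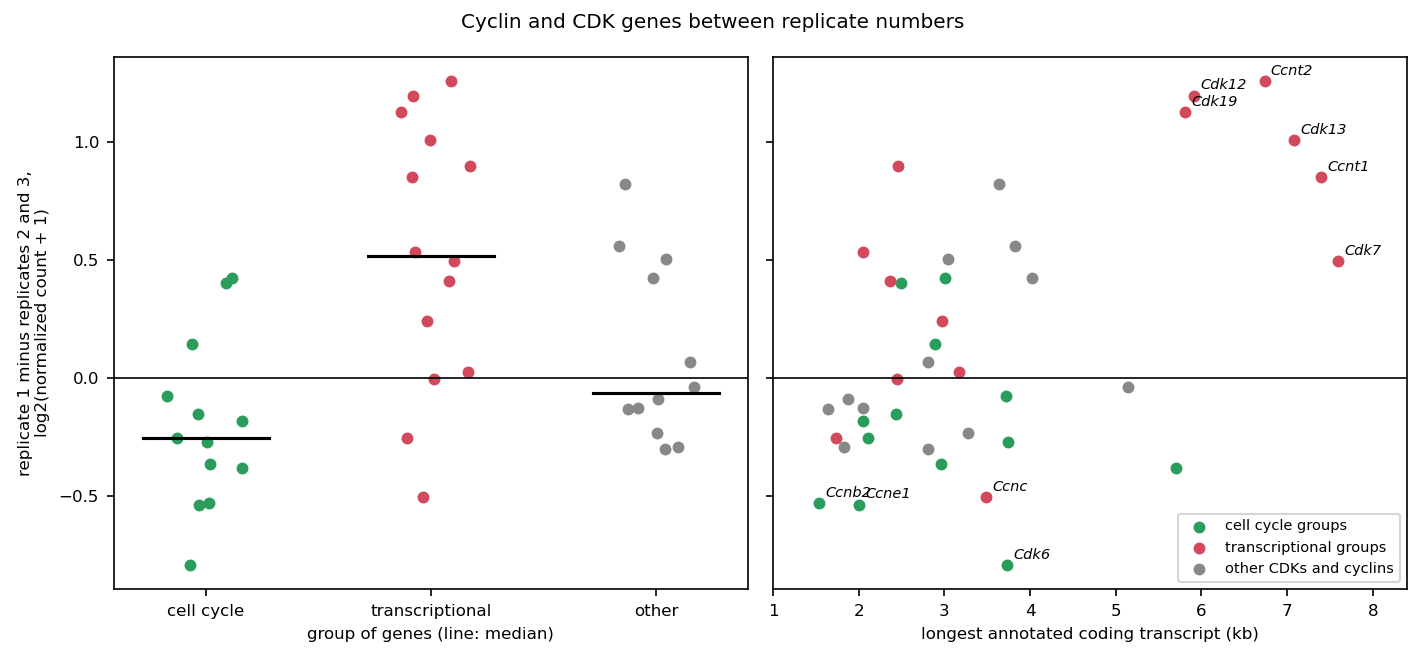
Replicate 1 minus the mean of replicates 2 and 3, in log2(normalized count + 1) over both lines, for the 39 genes tested, by group (left, line at the median) and against the length of the longest annotated coding transcript in kb (right). Transcriptional genes lie mostly above 0 and cell cycle genes mostly below. Long genes such as *Ccnt2* and *Cdk13* lie high. *Cdk7*, the longest (7595 bp), lies at 0.50, and *Ccnd2* (5701 bp) lies at -0.38.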

How the data were processed

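mRNA-seq libraries of D4 EBs, 3 per line, were analysed, and every sample column was used. The authors sequenced on the Ion Proton, aligned to mm9 by TopHat2 followed by TMAP, and used HTSeq for gene counts and DESeq2 for the comparison, per the labels and the study's methods. The deposited signal values are counts divided by size factors, and 100% of them were whole multiples of 1 step per library (tolerance 0.02), so whole reads were recovered. The cyclin and CDK genes, their groups and the other gene lists were chosen with earlier results of these data known.

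The design provided for raw or normalized values. As the values were normalized, lines were compared on log2(normalized count + 1) by limma's trend method (version 3.58.1, R 4.3.3). filterByExpr of edgeR (version 4.0.16, minimum count 10) kept 12891 genes, and p-values were adjusted over all of them by the Benjamini-Hochberg method (threshold 0.05). Replicate numbers were compared with limma's F test. edgeR and DESeq2 (version 1.42.0) on the recovered reads were alternatives, with other scalings, filters and pseudocounts, each library left out and the replicate number as a block. Alternatives chosen after seeing the data were replicates 2 and 3 only, a correction by loess (span 0.3) on transcript length and GC content, and levels per kb of the longest coding transcript. The series design states side by side differentiations on different days, and a shared replicate number was taken to mark a shared day. Deviations of same-numbered libraries from their line mean correlated across all genes at 0.74, 0.32 and -0.05 for numbers 1 to 3. EVX1-Δfs replicate 3 correlated with Del#3 replicate 2 at 0.42, and EVX1-Δfs replicate 2 with Del#3 replicate 3 at 0.25, so the values did not show the pairing for numbers 2 and 3. Lengths came from GENCODE models on mm9. The tests were run first on simulated data.

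Full values were given for the D-, E-, A- and B-type cyclins and *Cdk1*, *Cdk2*, *Cdk4* and *Cdk6*, for the gene with the most reads and the gene with the smallest p in each other group, and for genes called in any fit. Regulators were named if called by limma, or otherwise at most the 2 with the smallest p per list. Exons of 15 of the 41 genes overlap another gene's exons, 13 of them on the opposite strand, and how reads were assigned there was not checked. Counting error was not separated from the spread between the 3 replicates of a line. p-values measure the spread between these differentiations, of 1 clone for EVX1-Δfs and with the clone not named for Del#3.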

Additional observations from a re-analysis of the deposited data

How the results depend on the processing

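Between the lines, 0 of the cyclin and CDK genes were called under any alternative, and the 18 alternatives moved the log2 fold change of 11 of them without a change of sign. The median log2 fold change ranged from -0.04 to 0.05 with 1 library left out. The count over all genes was 2 with any library left out and 9 with the replicate block in DESeq2. The regulators gave 0 calls in every fit. At an unadjusted p under 0.05, 1 cyclin or CDK gene of 39 was reached, without EVX1-Δfs replicate 3, where 1.63% of all genes were. The replicate block rests on same-numbered libraries sharing a day. With it, edgeR and DESeq2 also gave 0 calls for the family, and limma gave 3 over all genes.

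Between replicate numbers, the calls depended on the processing. Over all genes, 546 were called by limma, 334 with TMM scaling, 317 with total-read scaling, 1298 by DESeq2's likelihood ratio test, 16 after the length and GC correction, 0 with replicates 2 and 3 only, and 197 to 3175 with 1 library left out. Of the cyclin and CDK genes, 3 were called by limma, 1 by edgeR, 1 with TMM scaling, 1 with total-read scaling, 0 after the correction, 0 with replicates 2 and 3 only, and 0 to 9 with 1 library left out. That count was 0 without either replicate 1 library, 6 without EVX1-Δfs replicate 3 (18.3% of all genes) and 9 without Del#3 replicate 3 (24.2% of all genes). Of the regulators, 3 were called by limma, 5 by DESeq2 (also *Cks1b* and *E2f3*, named after their values were seen), 0 after the correction, 0 with replicates 2 and 3 only, and 2 to 14 with 1 library left out. Leaving out libraries and keeping 2 replicate numbers reduces the samples. The cause of the other changes was not tested.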
